A study of Homo sapiens with 43 samples.

Results

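The alpha-arrestins described here are TXNIP (thioredoxin-interacting protein), ARRDC1, ARRDC2, ARRDC3 and ARRDC4, 5 of the 20052 genes counted in HMC3 cells exposed to glucocorticoids. They were chosen by family, with earlier results of these data known. The attention to their levels after the hormone had been withdrawn was chosen by the fitted values of day 6 and of the change between the days. Levels of day 6 and changes between the days are therefore given as a description with no test, and tests are kept to day 3. Since day 3 values enter the change between the days, the day 3 tests are not fully separate from that choice. ARRDC5, which belongs to the same family, was not among the members. It was placed in a list of other arrestin-fold genes, of whose 9 genes 6 were in the count table. All 5 members passed the filter on low counts.

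Alpha-arrestins carry arrestin folds and a tail with PPxY motifs, which bind the WW domains of NEDD4-family ubiquitin ligases, so that the ligase is brought to a membrane protein and the cargo is ubiquitylated and internalised. TXNIP also binds reduced thioredoxin and inhibits it, lowers glucose uptake by promoting the internalisation of the transporter encoded by SLC2A1, and is transcribed through MondoA and MLX when phosphorylated glucose accumulates. In macrophages and microglia it is studied mostly as a partner of the NLRP3 inflammasome.

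HMC3, the source of every library, is an immortalised human cell line sold under the name of microglia, which are macrophages that live in the brain. The tested groups were dexamethasone at 1 µM, dexamethasone at 0.01 µM, hydrocortisone (cortisol) at 10 µM and hydrocortisone at 0.01 µM, each set against flasks that received the ethanol vehicle of the same dose, with untreated medium as a further control. On day 3 cells were harvested flask by flask and viable cells were reseeded in normal growth medium, and these cultures were harvested on day 6 after a washout of 3 days. Day 3 held 3 libraries of each hormone dose, 3 of each vehicle and 3 of medium; day 6 held 3 of each hormone dose and 1 of each vehicle, which makes 43 libraries in 17 groups. The labels speak of separately harvested flasks of a single passage of a single line, so a p-value here weighs differences against flask-to-flask spread alone. Dexamethasone is a synthetic relative of hydrocortisone with an added fluorine, an added methyl group and a further double bond in its first ring.

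Depth ran from 7638840 to 24426643 counts per library. Ribosomal RNA took between 9.90% and 94.9% of them (median 29.3%), and more than 75% in 7 libraries, which left 1083397 to 17542030 other counts per library. Of 20 microglia and macrophage markers 7 were in the table and 3 had a median above 1 count per 1000000 of the non-ribosomal counts (among them MERTK at 9.04 and OLFML3 at 2.05), while CSF1R stood at 0.273 and TREM2 at 0.248. Of 12 fibroblast and pericyte markers 10 were in the table and 8 were above 1, with COL1A1 at 1680 and VIM at 1630. In bulk RNA a smaller number of cells of a kind and less RNA per cell cannot be told apart, and this holds for every level below.

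TXNIP (ENSG00000265972) lies on GRCh38 chromosome 1, 145992435 to 145996600, minus strand, and ARRDC4 (ENSG00000140450) on chromosome 15, 97960698 to 97973838, plus strand. The windows from 250 bases before to 50 bases after their start sites, taken from RefSeq on GRCh38.p14, are shown because the levels of these genes moved together over the groups. The capitals mark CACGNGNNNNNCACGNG, a pair of E-box-like CACG elements of the carbohydrate response type, in TXNIP, and the E box CACGTG in ARRDC4.
TXNIP promoter, chr1:145996530-145996829, minus strand: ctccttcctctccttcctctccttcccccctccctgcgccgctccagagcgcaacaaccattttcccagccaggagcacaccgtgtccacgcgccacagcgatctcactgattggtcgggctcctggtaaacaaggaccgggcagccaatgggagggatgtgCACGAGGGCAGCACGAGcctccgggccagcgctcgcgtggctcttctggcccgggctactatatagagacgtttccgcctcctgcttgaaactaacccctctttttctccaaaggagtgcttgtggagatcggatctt
ARRDC4 promoter, chr15:97960453-97960752, plus strand: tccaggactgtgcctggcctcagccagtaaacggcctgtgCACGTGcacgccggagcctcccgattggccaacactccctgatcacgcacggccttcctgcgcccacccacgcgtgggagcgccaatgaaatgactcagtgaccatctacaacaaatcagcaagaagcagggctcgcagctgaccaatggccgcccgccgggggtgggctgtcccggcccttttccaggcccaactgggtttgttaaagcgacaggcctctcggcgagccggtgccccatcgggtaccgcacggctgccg

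The paired element of TXNIP reads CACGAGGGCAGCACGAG and begins 88 bases before the start site. Searched on both strands, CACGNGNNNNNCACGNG was in 20 of 35116 promoter windows of this length (0.057%), and the other 4 family members had no match. CACGTG was in 7.26% of the windows and begins 210 bases before the start of ARRDC4; it was in no other window of the family. The forkhead element GTAAACA, found in 3.42% of windows, begins 124 bases before the start of TXNIP, and a further match lies in an alternative window of ARRDC3. CCAAT, found in 34.6% of windows, was present 2 times in the TXNIP window shown and 3 times in that of ARRDC4. The glucocorticoid receptor palindrome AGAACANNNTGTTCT (1 window in all, 0.00285%) and its arm AGAACA (14.8% of windows) were in no window of the 5 genes. A match describes letters in this window only, and the absence of a match says nothing about the receptor.

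The family differed widely in level. Per kilobase of exon, the median over all 43 libraries was 9.77 counts per 1000000 (CPM, on library sizes scaled by the trimmed mean of M values) for TXNIP, 3.81 for ARRDC3, 1.98 for ARRDC1, 1.08 for ARRDC4 and 0.895 for ARRDC2. Raw counts of a library ran from 70 to 2179 for TXNIP (median 459), from 26 to 758 for ARRDC3, from 16 to 318 for ARRDC1, from 7 to 166 for ARRDC2 and from 6 to 224 for ARRDC4, so the last 3 carry more counting error. TXNIP also had the widest range, 11.3 to 92.3 CPM, and ARRDC2 the narrowest, 2.87 to 6.46 CPM. All levels that follow are CPM, and all changes are log2 fold changes with standard errors (SE).

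On day 3, TXNIP was higher under the higher dose of either hormone and ARRDC1, ARRDC2 and ARRDC4 were higher under some treatments, while ARRDC3 passed the threshold under none when set against the vehicle of the same dose. The threshold was a Benjamini-Hochberg adjusted p below 0.05 over all 16816 genes tested with edgeR's quasi-likelihood test.

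TXNIP stood at 92.3, 73.9 and 69.8 CPM in replicates 2, 3 and 4 of dexamethasone 1 µM, against 36, 53.6 and 15.5 CPM in replicates 1, 2 and 4 of its vehicle. The groups did not overlap, although the vehicle libraries spread more than 3-fold among themselves. The rise was 2.25-fold (log2 1.17, SE 0.31, 95% interval 0.54 to 1.80, adjusted p = 0.00592). It passed the threshold whichever single library was left out, with log2 values from 0.81 without vehicle replicate 4 to 1.61 without vehicle replicate 2, and missed it (adjusted p = 0.166, log2 1.18) when only these 6 libraries entered the fit; over all 15 alternatives the adjusted p ran from 9.14e-06 to 0.166.

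Under hydrocortisone 10 µM, TXNIP stood at 68.2, 66.1 and 70.3 CPM, against 26.4, 28.5 and 20.4 CPM in its vehicle, a narrow spread on either side and no overlap. It rose 2.72-fold (log2 1.44, SE 0.31, 95% interval 0.81 to 2.08, adjusted p = 0.00162) and passed the threshold under all 15 alternatives (adjusted p 5.51e-06 to 0.0132). In size it was number 103 of the 938 genes that rose in this comparison, and in dexamethasone 1 µM number 343 of 1739.

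With dexamethasone at 0.01 µM, TXNIP stood at 73.3, 78.2 and 47.1 CPM, against 41.0, 42.4 and 25.5 CPM in its vehicle. The groups did not overlap, but the log2 difference of 0.87 (SE 0.31, 95% interval 0.24 to 1.495) did not pass the threshold (adjusted p = 0.0568). The lowest hormone library, replicate 3, had 94.9% ribosomal RNA. Without it the log2 value was 1.06 and the adjusted p 0.0364; over 15 alternatives the adjusted p ran from 0.000232 to 0.223, with 6 below 0.05.

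Hydrocortisone at 0.01 µM left TXNIP at 23.0, 16.3 and 18.9 CPM, against 18.1, 24.4 and 24.9 CPM in its vehicle. The groups overlapped (log2 -0.21, SE 0.30, 95% interval -0.83 to 0.41, adjusted p = 1.0). No member passed in this comparison, and none had an unadjusted p below 0.05; of all genes 0 passed with edgeR (398 at an unadjusted p below 0.05) and 1 with DESeq2.

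**Figure D1:**
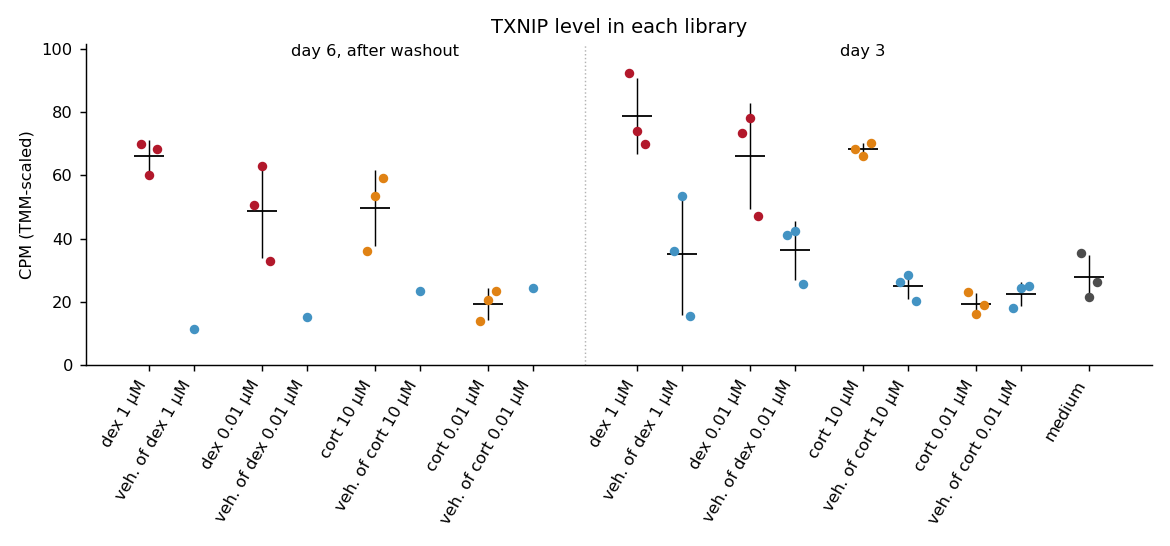
TXNIP level (CPM on scaled library sizes, linear axis) in each of the 43 libraries, with day 6 on the left and day 3 on the right; red points are dexamethasone, orange hydrocortisone, blue vehicle and grey medium, and black lines give the mean and SD of groups of 3. Libraries of dexamethasone at either dose and of hydrocortisone 10 µM lie at 47.1 CPM or above on day 3 and at 33.0 CPM or above on day 6, where the 4 vehicle libraries lie between 11.3 and 24.5 CPM.

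ARRDC4, which like TXNIP is a gene that responds to glucose, stood at 6.33, 5.83 and 6.10 CPM under hydrocortisone 10 µM, against 4.35, 3.07 and 4.12 CPM in its vehicle. It rose 1.59-fold (log2 0.67, SE 0.22, 95% interval 0.23 to 1.11, adjusted p = 0.0343). This call was lost when hormone replicate 2 (adjusted p = 0.0853), 3 (0.0636) or 4 (0.0875) or vehicle replicate 2 (0.171) was left out, with edgeR's test in each fit. Under dexamethasone 1 µM, ARRDC4 stood at 6.94, 5.40 and 6.47 CPM, against 5.13, 5.38 and 3.61 CPM in vehicle, just short of overlap, and did not pass (log2 0.41, SE 0.22, adjusted p = 0.174). Under dexamethasone 0.01 µM it stood at 6.23, 6.93 and 2.94 CPM, against 6.08, 6.20 and 4.27 CPM in vehicle. Here the groups overlapped and the log2 difference was -0.00 (95% interval -0.45 to 0.44), which moved to 0.33 without the libraries above 75% ribosomal RNA, still short of the threshold.

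ARRDC1, which recruits TSG101 and drives the budding of small vesicles from the plasma membrane, stood at 9.17, 11.7 and 11.5 CPM under dexamethasone 1 µM, against 7.41, 5.51 and 6.93 CPM in vehicle. It rose 1.63-fold (log2 0.71, SE 0.16, 95% interval 0.38 to 1.04, adjusted p = 0.00108) and passed the threshold in every alternative run for this comparison. Its log2 differences were smaller and did not pass under dexamethasone 0.01 µM (0.24, SE 0.16), hydrocortisone 10 µM (0.31, SE 0.16) and hydrocortisone 0.01 µM (0.26, SE 0.16), although the hormone libraries lay above the vehicle libraries in each, which under hydrocortisone 0.01 µM held for 9.2% of all genes in either direction. The gene (ENSG00000197070, chromosome 9, 137605654 to 137615360, plus strand) shares 29 bases with ARRDC1-AS1 on the opposite strand, which had 5 to 242 counts per library.

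ARRDC2, a close relative of ARRDC3, stood at 5.52, 6.09 and 4.82 CPM under dexamethasone 1 µM, against 2.93, 4.05 and 4.60 CPM in vehicle (log2 0.50, SE 0.18, adjusted p = 0.0423). Under dexamethasone 0.01 µM it stood at 4.78, 6.46 and 3.43 CPM, against 2.87, 3.34 and 3.93 CPM in vehicle, with overlap (log2 0.55, SE 0.19, adjusted p = 0.0411). Both rises rest on few reads, and each call was lost in 4 of 6 fits that left out a library. At 1 µM the call was lost without hormone replicate 2 (0.0815) or 3 (0.159) or vehicle replicate 1 (0.257) or 2 (0.0756), and without the filter on low counts (0.0619). At 0.01 µM it was lost without hormone replicate 1 (0.0581) or 2 (0.364) or vehicle replicate 1 (0.187) or 2 (0.0944), without the filter (0.0509) and with only these 6 libraries in the fit (0.249); these are edgeR's adjusted p-values. The log2 differences under hydrocortisone, 0.34 at 10 µM (SE 0.18) and 0.30 at 0.01 µM (SE 0.18), did not pass. ARRDC2 (ENSG00000105643) lies on chromosome 19, 18001132 to 18014102, plus strand.

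ARRDC3, an adaptor for the beta-2 adrenergic receptor and integrin beta-4, stood below the vehicle of the same dose without passing the threshold. At 0.01 µM dexamethasone it was at 15.1, 16.1 and 12.8 CPM, against 18.6, 20.3 and 20.2 CPM in vehicle, with no overlap (log2 -0.42, SE 0.23, 95% interval -0.89 to 0.05, adjusted p = 0.254). The other log2 differences were -0.13 under dexamethasone 1 µM (SE 0.23), -0.16 under hydrocortisone 10 µM (SE 0.23) and -0.13 under hydrocortisone 0.01 µM (SE 0.23), each with overlapping libraries. Against other controls ARRDC3 was called lower under dexamethasone by edgeR's test. At 0.01 µM this held over untreated medium (log2 -1.09, SE 0.23, adjusted p = 0.00123) and over all 12 vehicle libraries (-0.64, SE 0.19, adjusted p = 0.0151). At 1 µM it held over medium (-0.77, SE 0.23, adjusted p = 0.0154). The log2 difference of vehicle over medium was itself -0.45 (SE 0.17), not past the threshold, and the values over medium include it. Medium libraries ran from 17.7 to 43.4 CPM. ARRDC3 (ENSG00000113369, chromosome 5, 91368724 to 91383359, minus strand) shares 3011 bases with ARRDC3-AS1, which had 1 to 16 counts per library; whether counting used strand is not given in the sources used here, so reads there cannot be told apart.

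In all, 3 of 5 members passed under dexamethasone 1 µM, where 22.6% of all tested genes passed, 10.3% of them as rises. At 0.01 µM of dexamethasone 1 of 5 passed, against 14% of all genes and 6.15% as rises, and under hydrocortisone 10 µM 2 of 5, against 13.1% and 5.58%. The median log2 change of the members was 0.50, 0.24 and 0.34 in these comparisons, where that of all genes was 0.02, 0.00 and 0.01. Every one of these calls was a rise. Libraries of hormone and vehicle did not overlap for 4 of 5 members under dexamethasone 1 µM, where this held for 38.3% of all genes, for 3 of 5 under dexamethasone 0.01 µM (23.5%) and for 4 of 5 under hydrocortisone 10 µM (29%).

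**Figure D2:**
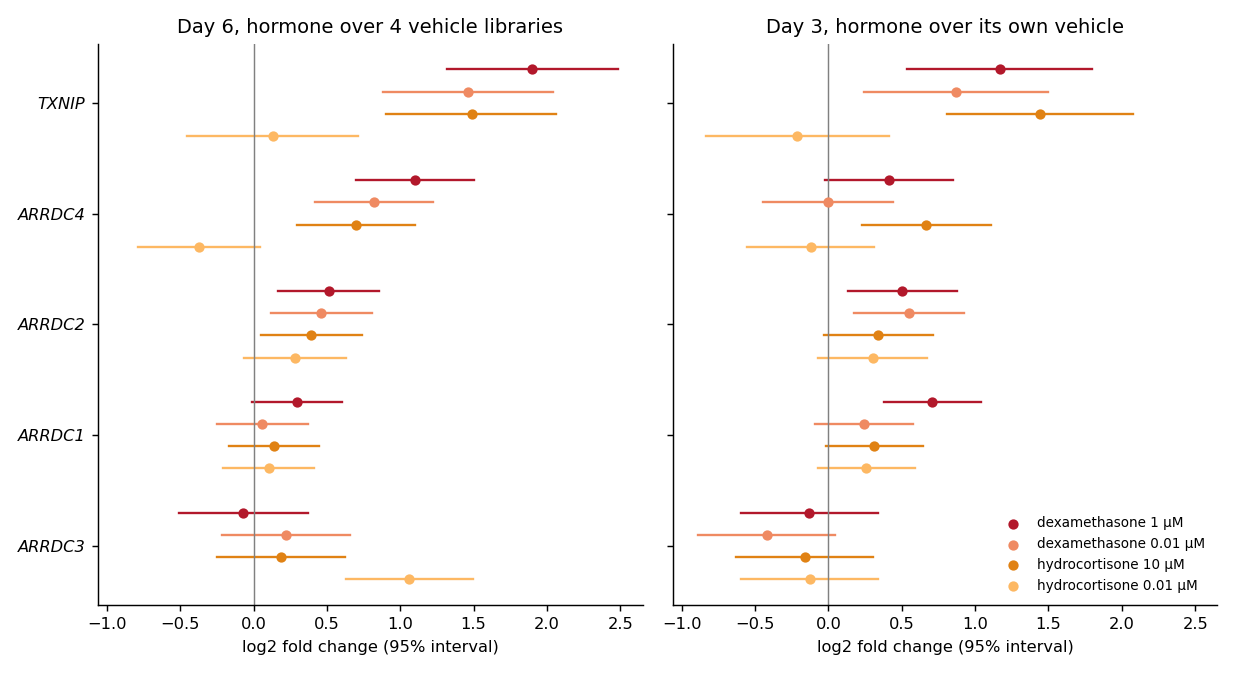
Log2 fold change (points) with its 95% interval (lines) for each member on day 6, over the 4 vehicle libraries (left), and on day 3, over the vehicle of the same dose (right); colours give hormone and dose. TXNIP lies right of 0 for the first 3 treatments on both days, ARRDC4 is farther right on day 6 after dexamethasone, and ARRDC3 lies farthest right after hydrocortisone 0.01 µM on day 6.

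Whether dose mattered was asked by setting the vehicle-corrected effects of the doses of a hormone against each other. For hydrocortisone, 10 µM over 0.01 µM, the TXNIP effects were 1.44 and -0.21 and differed by 1.66 (SE 0.43, 95% interval 0.77 to 2.54, adjusted p = 0.0232). TXNIP was the only member to pass, 1 of 5, where 4.09% of all genes passed and 1.73% were rises. The call was lost without replicate 4 of hydrocortisone 10 µM (adjusted p = 0.052), replicate 3 of its vehicle (0.0559), replicate 3 of hydrocortisone 0.01 µM (0.0664) or replicates 2 (0.0533) or 4 (0.0547) of its vehicle, with log2 values between 1.52 and 1.63 in these fits of edgeR's test. ARRDC4 differed by 0.79 (SE 0.31, adjusted p = 0.163), and ARRDC1, ARRDC2 and ARRDC3 by 0.06, 0.04 and -0.03. For dexamethasone, 1 µM over 0.01 µM, no member passed with edgeR or DESeq2 and none had an unadjusted p below 0.05, in a comparison where 0.0476% of all genes passed. The TXNIP difference was 0.30 with a 95% interval of -0.58 to 1.18, and that of ARRDC1 0.47 (-0.00 to 0.94).

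The hormones shared a single dose, 0.01 µM, so 1 pair was compared. At this dose the TXNIP effect was 0.87 under dexamethasone and -0.21 under hydrocortisone, a difference of 1.08 (SE 0.43, 95% interval 0.20 to 1.96) that missed the threshold (adjusted p = 0.178) although its unadjusted p was 0.0182. It stayed positive, between 0.88 and 1.36, in all 19 alternatives, and passed in none. No member passed with edgeR or DESeq2, where 4.98% of all genes did. The differences of the others were 0.25 for ARRDC2 (95% interval -0.28 to 0.77), 0.12 for ARRDC4 (-0.50 to 0.73), -0.02 for ARRDC1 (-0.48 to 0.45) and -0.29 for ARRDC3 (-0.96 to 0.37); these intervals leave room for differences of either sign. At the higher doses, which differ 10-fold, TXNIP averaged 78.7 ± 12 CPM under dexamethasone 1 µM and 68.2 ± 2.11 CPM under hydrocortisone 10 µM (SD, n = 3 each).

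Vehicle had little measurable effect on the family. TXNIP ran from 15.5 to 53.6 CPM (median 25.9) in the 12 vehicle libraries of day 3, against 35.4, 21.5 and 26.2 CPM in medium, with overlap (log2 0.07, SE 0.24, 95% interval -0.42 to 0.56). ARRDC3 ran from 18.6 to 41.5 CPM (median 21) in vehicle, against 17.7, 32.7 and 43.4 CPM in medium, a log2 difference of -0.45 (SE 0.17) with an unadjusted p of 0.0156 and an adjusted p of 0.887. No gene passed with edgeR (903 had an unadjusted p below 0.05) or with DESeq2. Among vehicle libraries, TXNIP was at 15.5 to 53.6 CPM (median 38.5) in the 6 of dexamethasone and at 18.1 to 28.5 CPM (median 24.7) in the 6 of hydrocortisone; this difference was not tested.

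**Figure D3:**
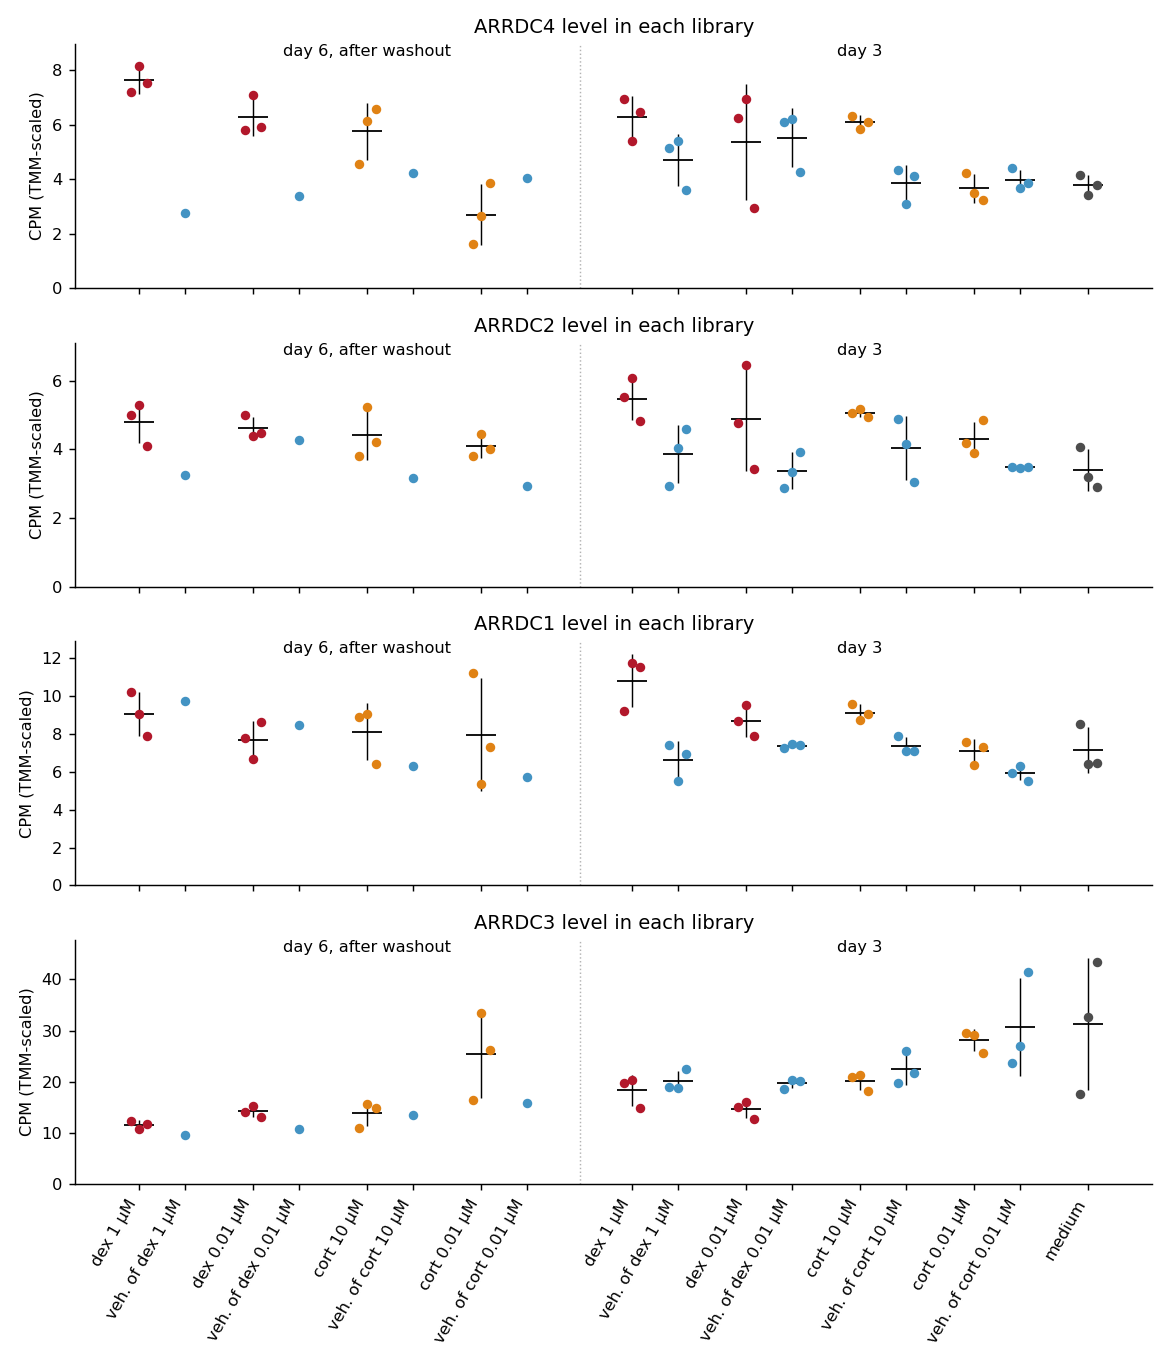
Levels of ARRDC4, ARRDC2, ARRDC1 and ARRDC3 (CPM on scaled library sizes, linear axes from 0) in each library, with day 6 left of day 3; colours and black lines (mean and SD of groups of 3) are as in the TXNIP plot. ARRDC4 reaches 7.18 to 8.14 CPM under dexamethasone 1 µM on day 6, and ARRDC3 is lower in the vehicle libraries of day 6 (9.55 to 15.9 CPM) than in those of day 3 (18.6 to 41.5 CPM).

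After 3 days without hormone TXNIP was still high. On day 6 it stood at 69.8, 60.1 and 68.2 CPM in cells that had received dexamethasone 1 µM, at 50.5, 62.8 and 33.0 CPM after dexamethasone 0.01 µM and at 36.1, 53.5 and 59.1 CPM after hydrocortisone 10 µM. The vehicle libraries of day 6 held 11.3, 15.1, 23.4 and 24.5 CPM, in the order of the vehicles of dexamethasone 1 µM and 0.01 µM and of hydrocortisone 10 µM and 0.01 µM. None of these 9 hormone libraries reached down to the highest vehicle library; such a lack of overlap held for 20.2%, 6.67% and 11% of all genes. After hydrocortisone 0.01 µM the level was 13.9, 20.6 and 23.5 CPM, within the range of vehicle.

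Against the mean of the 4 vehicle libraries, the day 6 log2 differences of TXNIP were 1.90 after dexamethasone 1 µM (SE 0.28), 1.46 after dexamethasone 0.01 µM (SE 0.28), 1.49 after hydrocortisone 10 µM (SE 0.28) and 0.13 after hydrocortisone 0.01 µM (SE 0.28). The vehicle library of dexamethasone 1 µM, the lowest in TXNIP, had 77.1% ribosomal RNA. Without it the log2 differences were 1.69, 1.25 and 1.27 in the same order. Against the single vehicle library of the same dose the log2 differences were 2.54, 1.69 and 1.08, with SEs of 0.51, 0.48 and 0.46.

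ARRDC4 was high on day 6 in the same groups. It stood at 7.18, 8.14 and 7.54 CPM after dexamethasone 1 µM, at 5.81, 7.07 and 5.92 CPM after dexamethasone 0.01 µM and at 4.56, 6.14 and 6.56 CPM after hydrocortisone 10 µM, against 2.75, 3.37, 4.23 and 4.03 CPM in the vehicle libraries, with no overlap. The log2 differences were 1.10 (SE 0.20), 0.82 (SE 0.20) and 0.70 (SE 0.20) in the same order. After hydrocortisone 0.01 µM it stood at 1.63, 2.63 and 3.84 CPM, within or below vehicle (log2 -0.37, SE 0.21); the lowest of these, replicate 2, had 76.8% ribosomal RNA.

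The remaining members differed less on day 6, with an exception in ARRDC3. ARRDC2 was higher by 0.51 after dexamethasone 1 µM (SE 0.17), 0.46 after dexamethasone 0.01 µM (SE 0.17) and 0.39 after hydrocortisone 10 µM (SE 0.17) on the log2 scale. ARRDC1 differed by 0.29, 0.06 and 0.14 (SE 0.15 each). ARRDC3 stood at 16.5, 33.4 and 26.2 CPM after hydrocortisone 0.01 µM, against 9.55, 10.7, 13.5 and 15.9 CPM in vehicle, a log2 difference of 1.06 (SE 0.21). The groups did not overlap, as for 6.42% of all genes in this comparison. The vehicle of this same dose was the highest in ARRDC3 on day 6 (15.9 CPM) and, by its mean, among the vehicles of day 3 (30.7 ± 9.54 CPM). Over 15 alternatives, among them the single vehicle of the same dose, the log2 difference ran from 0.67 to 1.29. Without hormone replicate 3 it was 0.81. After the other 3 treatments ARRDC3 differed from vehicle by -0.07, 0.22 and 0.19 (SE 0.21 each).

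The vehicle cells themselves moved between the days. ARRDC3 stood at 9.55 to 15.9 CPM in the 4 vehicle libraries of day 6, against 18.6 to 41.5 CPM in the 12 of day 3, with no overlap, as for 0.41% of all genes (log2 -0.91, SE 0.17). TXNIP stood at 11.3 to 24.5 CPM on day 6, against 15.5 to 53.6 CPM on day 3 (log2 -0.72, SE 0.22). Its fall lay in the vehicles of dexamethasone 1 µM (11.3 against a day 3 mean of 35.0 CPM) and 0.01 µM (15.1 against 36.3 CPM). The vehicles of hydrocortisone 10 µM (23.4 against 25.1 CPM) and 0.01 µM (24.5 against 22.5 CPM) stayed level. ARRDC4 differed by -0.33 (SE 0.16), ARRDC2 by -0.13 (SE 0.13) and ARRDC1 by 0.12 (SE 0.12). For ARRDC4 too the vehicles of dexamethasone were lower on day 6 (2.75 and 3.37 against 4.71 and 5.52 CPM). Those of hydrocortisone were not (4.23 and 4.03 against 3.85 and 3.98 CPM).

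The mean TXNIP level under hormone was lower on day 6 too. It was 66.0 ± 5.17 CPM on day 6 and 78.7 ± 12 CPM on day 3 for dexamethasone 1 µM, 48.8 ± 15 and 66.2 ± 16.7 CPM for dexamethasone 0.01 µM and 49.6 ± 12 and 68.2 ± 2.11 CPM for hydrocortisone 10 µM (SD, n = 3 each, day 6 before day 3). The mean over all vehicles was lower as well, though those of hydrocortisone were near their day 3 means. The washout change is the effect on day 6 minus that on day 3, each over all vehicle groups of its day. On the log2 scale it was 0.47 (SE 0.37), 0.28 (SE 0.37) and 0.26 (SE 0.37), within or near its error. Without the libraries above 75% ribosomal RNA the values were 0.17, -0.15 and 0.02, and with the flask as a block they were 0.10, -0.11 and -0.15, so the sign turned in 1 and in 2 of the 3 treatments. Over the vehicle of the same dose, a single library on day 6, the TXNIP effects on that day were 2.54, 1.69 and 1.08. On day 3 they were 1.17, 0.87 and 1.44, so the effect of hydrocortisone 10 µM was lower on day 6. After hydrocortisone 0.01 µM the TXNIP washout change over all vehicles was larger, 0.71 (SE 0.37), from -0.58 on day 3 to 0.13 on day 6. Its mean level there was 19.3 ± 4.91 CPM on day 6 and 19.4 ± 3.39 CPM on day 3. After dexamethasone 1 µM, dexamethasone 0.01 µM and hydrocortisone 10 µM the ARRDC4 washout change was 0.61 (SE 0.27), 0.52 (SE 0.27) and 0.25 (SE 0.26). For ARRDC3 after dexamethasone 0.01 µM it was 0.86 (SE 0.28). Beside the vehicle of the same dose, ARRDC4 after hydrocortisone 10 µM averaged 5.75 against 4.23 CPM on day 6. On day 3 it averaged 6.09 against 3.85 CPM, so this difference was smaller on day 6 too. After dexamethasone 1 µM and 0.01 µM the day 6 means were 7.62 and 6.26, against 2.75 and 3.37 CPM. Those of day 3 were 6.27 and 5.37, against 4.71 and 5.52 CPM.

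TSC22D3, FKBP5, PER1 and KLF9, taken from 6 receptor targets listed as a control, gave other values over the same washout. Washout values of DUSP1 and NR3C1 from that list are not given here, and PER1 was added after its values were seen. TSC22D3, which encodes a glucocorticoid-induced leucine zipper protein, had a log2 effect of 0.43 on day 6 against 3.15 on day 3 after dexamethasone 0.01 µM, and of 0.62 against 3.36 after hydrocortisone 10 µM. FKBP5, a co-chaperone that restrains the receptor, had 0.28 against 1.22 and 0.45 against 1.28. PER1, a clock gene, had 0.35 against 2.15 and 0.44 against 1.99, and KLF9, a transcription factor, 0.03 against 1.58 and 0.47 against 1.62. Beside these, TXNIP had 1.46 against 1.19 and 1.49 against 1.23, and ARRDC4 0.82 against 0.30 and 0.70 against 0.45. After dexamethasone 1 µM more of the effect was left on day 6 in the known targets, with 2.47 against 3.83 for TSC22D3, 0.90 against 1.34 for FKBP5, 1.86 against 2.37 for PER1 and 1.12 against 1.78 for KLF9. On day 3 FKBP5 and TXNIP thus had effects of similar size, and on day 6 FKBP5 stood at 29.9, 36.5 and 41.8 CPM after dexamethasone 0.01 µM, against 27.5 to 32.9 CPM in the vehicle libraries. The difference between these genes in what was left was not tested.

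**Figure D4:**
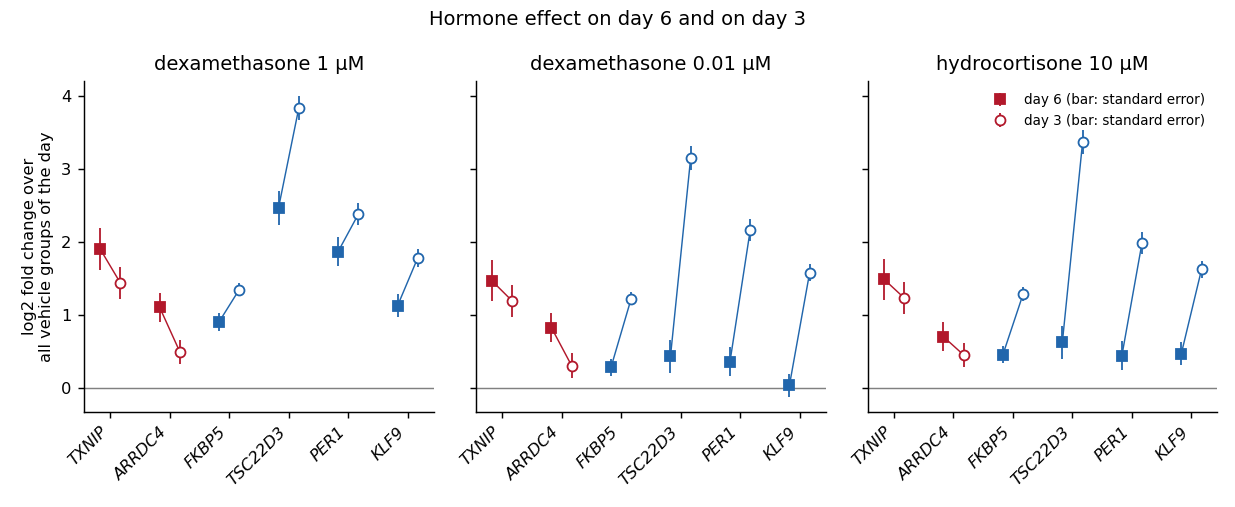
Log2 effect of 3 treatments over all vehicle groups of the same day, on day 6 (filled squares) and on day 3 (open circles), with standard errors, for TXNIP and ARRDC4 (red) and 4 known glucocorticoid targets (blue). Over these pooled vehicles TXNIP and ARRDC4 lie as high or higher on day 6, and TSC22D3, FKBP5, PER1 and KLF9 lie lower on day 6 in each panel. Over the vehicle of the same dose (1 library on day 6, not drawn), the TXNIP effect of hydrocortisone 10 µM was lower on day 6 (1.08) than on day 3 (1.44). The ARRDC4 mean under hydrocortisone 10 µM also lay closer to that vehicle on day 6 (5.75 against 4.23 CPM) than on day 3 (6.09 against 3.85 CPM). For both doses of dexamethasone the effects on TXNIP and ARRDC4 were higher on day 6.

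Over the 17 groups the TXNIP means fell in an order with few clear steps. The highest was dexamethasone 1 µM on day 3, followed by hydrocortisone 10 µM on day 3 (68.2 CPM), dexamethasone 0.01 µM on day 3 (66.2 CPM) and dexamethasone 1 µM on day 6 (66.0 CPM), whose libraries overlapped from each to the next. The libraries of dexamethasone 1 µM on day 6 lay above all those of hydrocortisone 10 µM on day 6 (49.6 CPM) and overlapped those of dexamethasone 0.01 µM on day 6 (48.8 CPM). The 3 untreated, 16 vehicle and 6 hydrocortisone 0.01 µM libraries followed, with neighbouring groups mostly overlapping, down to 11.3 CPM in the day 6 vehicle of dexamethasone 1 µM.

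The group means of TXNIP and ARRDC4 moved together (Pearson r = 0.905 over 17 group means of log2 CPM, given as a description; all genes share the same libraries and scaling). Among 11670 genes compared, TXNIP was the gene most like ARRDC4, and ARRDC4 was number 9 for TXNIP. The other pairs were looser, with r = 0.682 for TXNIP and ARRDC2, 0.692 for ARRDC1 and ARRDC2, 0.399 for TXNIP and ARRDC1, -0.035 for TXNIP and ARRDC3 and -0.44 for ARRDC1 and ARRDC3. The genes most like TXNIP were CMTM3 (0.933), FAM219A (0.932), P4HA2 (0.919), MCAM (0.916) and IFIT5 (0.913). For ARRDC1 they were GPR137 (0.921), REEP4 (0.915) and TNRC18 (0.911), and for ARRDC2 POMT1 (0.943), ESPL1 (0.933) and SLC12A4 (0.918). For ARRDC3 they were DUSP6 (0.871), PWWP2A (0.82) and IRF2BP2 (0.819), and for ARRDC4, after TXNIP, HILPDA (0.882) and KIF20A (0.863).

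**Figure D5:**
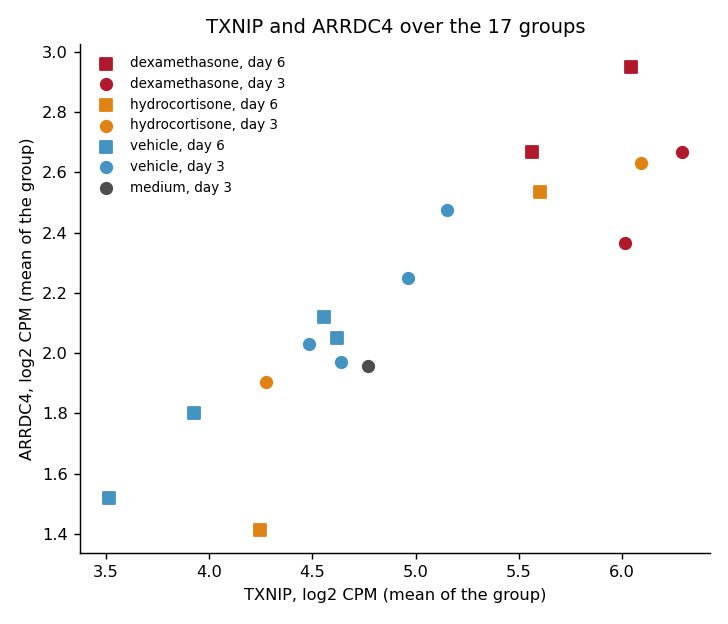
Mean log2 CPM of ARRDC4 (vertical) against that of TXNIP (horizontal) for each of the 17 groups; squares are day 6 and circles day 3, and colours give hormone, vehicle or medium. The groups of dexamethasone and of hydrocortisone 10 µM lie at the upper right, and hydrocortisone 0.01 µM lies with or below vehicle (r = 0.905 over the 17 points).

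Genes tied to the family's roles were followed on day 3 in lists chosen with earlier results known, and the counts are read beside the 22.6%, 14% and 13.1% of all genes that passed under dexamethasone 1 µM, dexamethasone 0.01 µM and hydrocortisone 10 µM. No list member passed under hydrocortisone 0.01 µM. Among the ligases that alpha-arrestins recruit, SMURF2 fell to 60.6 ± 5.85 CPM under dexamethasone 1 µM, against 180 ± 8.99 CPM in vehicle (log2 -1.57, adjusted p = 7.35e-19), and NEDD4L to 21 ± 1.99 CPM, against 53.6 ± 7.49 CPM (log2 -1.35, adjusted p = 2.09e-14; SD, n = 3 each, edgeR). Both also fell under dexamethasone 0.01 µM (log2 -1.29 and -1.22) and hydrocortisone 10 µM (-1.21 and -1.22). Of 10 NEDD4-family genes tested, 0 rose and 3 fell, 0 rose and 3 fell, and 1 rose and 2 fell in these 3 treatments, with list medians of -0.07, -0.15 and -0.13.

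In the thioredoxin system, which TXNIP inhibits, 0 of 23 rose and 6 fell under dexamethasone 1 µM, 1 rose and 5 fell under dexamethasone 0.01 µM, and 0 rose and 2 fell under hydrocortisone 10 µM, with medians of -0.10, -0.10 and -0.05. TXNRD1, the cytosolic thioredoxin reductase, fell by 0.76, 0.59 and 0.58 on the log2 scale, and PRDX1, a peroxiredoxin reduced by thioredoxin, fell by 0.72, 0.56 and 0.39 (adjusted p from 2.71e-11 to 0.00129, edgeR).

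For glucose uptake and phosphorylation, 5 of 15 tested genes rose and 2 fell under dexamethasone 1 µM, 1 rose and 2 fell under dexamethasone 0.01 µM, and 2 rose and 2 fell under hydrocortisone 10 µM, with medians of 0.17, 0.14 and -0.01. HK2, a hexokinase, fell in all 3 (log2 -0.81, -0.48 and -0.83), the glucose transporter gene SLC2A3 fell under dexamethasone 1 µM (-0.56) and 0.01 µM (-0.50), and PFKFB4, a regulator of glycolysis, rose under hydrocortisone 10 µM (0.63).

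In the MondoA, ChREBP and Max network, 2 of 11 rose and 1 fell, 2 rose and 3 fell, and 1 rose and 2 fell, with medians of 0.11, 0.15 and 0.08. MLXIP, which encodes MondoA, rose to 58.2 ± 5.29 CPM under dexamethasone 1 µM, against 33.6 ± 3.18 CPM in vehicle (log2 0.79, adjusted p = 1.27e-08), and by 0.74 and 0.33 in the other 2 treatments. MXI1, a Max partner, fell by 0.56 under dexamethasone 1 µM, and MYC fell by 0.41 under dexamethasone 0.01 µM and by 0.51 under hydrocortisone 10 µM.

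Of 7 tested inflammasome genes, 0 rose and 2 fell, 0 rose and 3 fell, and 0 rose and 3 fell, with medians of -0.53, -0.55 and -0.39. NEK7, which NLRP3 needs for its assembly, fell by 0.99, 0.77 and 0.73, and NLRP1, another sensor, by 0.74 under dexamethasone 1 µM and 0.39 under hydrocortisone 10 µM. IL1B was listed at 0 CPM in every library of dexamethasone 0.01 µM, against 0.322 ± 0.118 CPM in vehicle (SD, n = 3 each; edgeR adjusted p = 0.00106). Both levels are near the floor, and hormone replicate 3 held 1083397 non-ribosomal counts, so this call rests on very few reads.

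Among genes that FOXO factors drive or PI3K signalling restrains, 5 of 14 rose and 1 fell, 1 rose and 1 fell, and 4 rose and 0 fell, with medians of 0.16, 0.01 and 0.20. IRS2, an adaptor of the insulin receptor, rose by 1.15, 1.29 and 0.73, FBXO32, a ubiquitin ligase subunit, rose by 1.27 under dexamethasone 1 µM and 1.32 under hydrocortisone 10 µM, and CITED2 fell by 0.27 under dexamethasone 0.01 µM. Of 15 cargo and ESCRT partners of alpha-arrestins, 2, 1 and 2 rose and 0 fell, with medians of 0.06, 0.03 and 0.13. INSR, the insulin receptor, rose by 0.61 under dexamethasone 1 µM and 0.55 under hydrocortisone 10 µM, ITGB4, the integrin that ARRDC3 binds, by 0.46 and 0.54 under dexamethasone 1 µM and 0.01 µM, and PDCD6IP, an ESCRT partner of ARRDC1, by 0.19 under hydrocortisone 10 µM. Of 6 other arrestin-fold genes, 2 rose and 1 fell, 1 rose, and 1 rose, with medians of 0.14, 0.01 and -0.04. ARRB1, a beta-arrestin, rose by 0.52 under dexamethasone 1 µM and 0.55 under hydrocortisone 10 µM, VPS26C by 0.22 under dexamethasone 1 µM and RGP1 by 0.29 under dexamethasone 0.01 µM. Of 6 receptor targets shown as a control, 5 rose and 1 fell, 4 rose and 1 fell, and 4 rose and 1 fell, with medians of 1.61, 1.34 and 1.39; under dexamethasone 1 µM the gene that fell was NR3C1, which encodes the receptor (log2 -0.49).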

How the data were processed

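The deposited table holds whole read counts per Ensembl gene for 43 RNA libraries of HMC3 cells, not normalized by the authors as far as its values show. FastQC, STAR, Subread with featureCounts and the build GRCh38 appear in the submitters' processing notes; their versions, order and strand setting are missing from the sources used here. The kit was a stranded total RNA kit, per the labels' protocols. Library depth lay between 7638840 and 24426643 counts.

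Sample titles gave groups and replicate numbers. Differences were tested with edgeR's quasi-likelihood method (version 4.0.16 in R 4.3.3; robust, non-legacy glmQLFit; TMM scaling) on the 16816 genes that filterByExpr kept (minimum count 10, minimum total 15). A single model held all libraries and a coefficient for each of 17 groups, with 26 residual degrees of freedom; a day 6 vehicle of 1 library takes its spread from the other groups. Benjamini-Hochberg adjustment ran across the genes tested within each comparison, and 0.05 was the threshold; calls are used for the 8 comparisons of day 3, and the 9 that involve day 6 are described. A standard error is the log2 change over the square root of the F statistic. The model was tested on simulated counts. Likeness was computed on log2 CPM (prior count 2), for genes whose mean was at least 1 on that scale. A current table gave symbols for 19978 genes and GENCODE v29, also the source of positions, for 70. No libraries of a group agreed within counting noise.

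The members and the gene lists were chosen with earlier results of these data known. Named genes are the members, up to 2 genes of each list and day 3 comparison with the smallest p past the threshold, and the 5 (TXNIP) or 3 genes most like a member; PER1 and NR3C1 were added after their values were seen. Alternatives were DESeq2 (1.42.0), RLE scaling, no filter, ribosomal genes left out, libraries above 75% ribosomal RNA left out, other controls, smaller fits, replicate blocks and leaving out each library.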

Additional observations from a re-analysis of the deposited data

Results flagged for a closer look

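The TXNIP effect of hydrocortisone on day 3 differed between the doses, which is why it is listed here. The vehicle-corrected log2 effect was 1.44 at 10 µM and -0.21 at 0.01 µM, a difference of 1.66 (SE 0.43, adjusted p = 0.0232, edgeR's quasi-likelihood test over all genes). All 3 libraries at 10 µM (66.1 to 70.3 CPM) lay above all 3 at 0.01 µM (16.3 to 23.0 CPM) and above the 6 vehicle libraries (18.1 to 28.5 CPM). The call was lost in 5 of 12 fits that left out a library, with adjusted p-values up to 0.0664.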

How the results depend on the processing

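TXNIP under hydrocortisone 10 µM and ARRDC1 under dexamethasone 1 µM on day 3 passed the threshold in each of their 15 alternatives. Depth limits ARRDC1, ARRDC2 and ARRDC4 most, and single vehicle libraries limit day 6.

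The number of members past the threshold on day 3 moved as follows. Untreated medium in place of vehicle gave 5 under dexamethasone 1 µM and 3 under dexamethasone 0.01 µM, and all 12 vehicle libraries gave 4 under dexamethasone 0.01 µM and 4 under hydrocortisone 10 µM. ARRDC3 was among them as a fall under dexamethasone in these fits, and the other calls were rises. Under dexamethasone 0.01 µM, DESeq2 gave 2, no filter on low counts 0, ribosomal genes left out 2 and a fit of these groups alone 0. For the hydrocortisone dose, leaving out libraries above 75% ribosomal RNA gave 2. Leaving out 1 library gave 2 to 3 members under dexamethasone 1 µM, 0 to 2 under dexamethasone 0.01 µM, 1 to 2 under hydrocortisone 10 µM and 0 to 1 for the hydrocortisone dose. The cause was not tested.

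Deviations from the group mean correlated little between same-numbered libraries. The r ran from -0.081 to 0.041 between hormone and vehicle on day 3, and from -0.074 to 0.1 between day 6 and day 3 of a treatment. Such low values cannot exclude that a day 6 culture came from the day 3 flask of its number, which no label states. The main fit treats the libraries as unpaired. With the number as a block, ARRDC2 missed the threshold under dexamethasone 1 µM (adjusted p = 0.0564) and 0.01 µM (0.052) on day 3, by edgeR; TXNIP passed it under dexamethasone 0.01 µM (0.0409), and the flask block turned the TXNIP washout change to -0.11 after dexamethasone 0.01 µM and -0.15 after hydrocortisone 10 µM.

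Log2 values of day 3 that changed sign, none past the threshold in any fit, were these. For ARRDC4 under dexamethasone 0.01 µM on day 3 the value was 0.21 with DESeq2, 0.001 with no filter, 0.27 without ribosomal genes, 0.33 without libraries above 75% ribosomal RNA, 0.30 over 12 vehicles, 0.535 over medium and -0.22 to 0.26 without 1 library. Under hydrocortisone 0.01 µM, ARRDC3 was 0.295 over 12 vehicles and -0.29 to 0.15 without 1 library, and ARRDC1 was -0.009 over medium. Between the hormones at 0.01 µM, ARRDC1 was 0.029 with DESeq2, 0.032 without ribosomal genes, 0.028 without libraries above 75% ribosomal RNA and -0.088 to 0.048 without 1 library. When 1 library was left out, ARRDC2 ran from -0.006 to 0.42 and ARRDC4 from -0.097 to 0.38 between the hormones. Without 1 library, for the dexamethasone dose TXNIP ran from -0.056 to 0.74 and ARRDC2 from -0.22 to 0.21. For the hydrocortisone dose ARRDC1 ran from -0.014 to 0.11, ARRDC2 from -0.135 to 0.19 and ARRDC3 from -0.31 to 0.13. In vehicle over medium TXNIP was -0.12 without libraries above 75% ribosomal RNA, -0.025 with the number block and -0.082 to 0.29 without 1 library, and ARRDC1 -0.14 to 0.080 without 1 library. Over all alternatives on day 6, ARRDC1 ran from -0.10 to 0.44 after dexamethasone 1 µM, -0.14 to 0.205 after dexamethasone 0.01 µM and -0.22 to 0.465 after hydrocortisone 0.01 µM, ARRDC3 from -0.19 to 0.28 after dexamethasone 1 µM and TXNIP from -0.34 to 0.32 after hydrocortisone 0.01 µM. In the washout of dexamethasone 1 µM and 0.01 µM and hydrocortisone 10 µM and 0.01 µM, ARRDC2 had lows of -0.15, -0.16, -0.21 and -0.01 and highs of 0.12, 0.28, 0.10 and 0.24; after hydrocortisone 0.01 µM ARRDC1 ran from -0.28 to 0.26 and ARRDC4 from -0.43 to 0.16. In vehicle between the days ARRDC1 ran from -0.01 to 0.24.

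Counts of all genes past the threshold moved by over 1.5 times in these fits. Under dexamethasone 0.01 µM on day 3, 2353 became 1522 without libraries above 75% ribosomal RNA, 713 with these groups alone and 3633 over 12 vehicles, and under hydrocortisone 10 µM 2199 became 4066 over 12 vehicles. Under hydrocortisone 0.01 µM on day 3, 0 became 1 with DESeq2 and 3 over 12 vehicles. The dexamethasone dose had 8 genes, 14 with DESeq2, 4 without ribosomal genes and 1 with the groups alone, and the hormones at 0.01 µM had 838, and 431 with the groups alone. Leaving out 1 library moved these counts by over 1.5 times in some fits, to 1396 under hydrocortisone 10 µM on day 3, to 4 to 18 for the dexamethasone dose, and to 3 for vehicle over medium. Against the single vehicle library of its dose the TXNIP difference after dexamethasone 1 µM on day 6 was 2.54.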
